A study of Mus musculus with 6 samples.

Results

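The regions described here are 809 short stretches of the mouse embryonic stem cell genome that were methylated in 2 reference libraries and much less so in a Dnmt3a knockdown library. Autosomal CpG cytosines with a level in all 6 libraries of the study were joined into runs wherever neighbours lay at most 100 bp apart, and runs of at least 5 cytosines were kept. This gave 22524 runs. The reference level of a run is the mean of its levels in the Dnmt3b and the Tet1 and Tet2 knockdown libraries, and 4064 runs had a reference of at least 60%. Of these, the 809 whose level in the Dnmt3a library was at most 75% of the reference were selected and are called Dnmt3a-sensitive runs, a name that states the rule only. The other 3255 methylated runs serve for comparison. Because the Dnmt3a, Dnmt3b and Tet1 and Tet2 levels chose the runs, those levels are given as a description. The control, the Dnmt1 and the Dnmt3a and Dnmt3b double knockdown libraries took no part in the choice.

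The 6 libraries come from E14 mouse embryonic stem cells, an established cell line, each expressing 1 kind of short hairpin RNA (shRNA) treatment: a control shRNA, shRNAs against Tet1 and Tet2 together, against Dnmt1, against Dnmt3a, against Dnmt3b, or against Dnmt3a and Dnmt3b together. There was 1 library per group, so no difference carries a replicate error or a test. An SD over runs or over the 19 autosomes describes spread along the genome only. The assay was reduced representation bisulfite sequencing (RRBS), in which DNA is cut with MspI at CCGG and bisulfite conversion leaves methylated and hydroxymethylated cytosines to be read as cytosine. Each library listed between 445016 and 604227 cytosines, fewest in the Dnmt1 library, and the files give levels without read depth, so counting error cannot be stated. A level is an average over a culture, so loss in some cells and partial loss in every cell cannot be told apart. How far each target was depleted cannot be read from methylation data and was not tested.

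DNMT3A and DNMT3B are the enzymes that methylate cytosines de novo, whereas DNMT1 copies the methylation of the parental strand onto the daughter strand after replication. In embryonic stem cells both de novo enzymes are active, and sequence that is copied imperfectly is known to need them to keep its level. TET1 and TET2 oxidise 5-methylcytosine, the start of active demethylation. A promoter is usually free of methylation when its CpGs are dense, and a smaller set of promoters, among them some of genes used in germ cells, is methylated in these cells.

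Sequence at 4 of the promoters that hold Dnmt3a-sensitive runs is shown first, because these runs can be placed at a named gene and their CpGs seen. The letters are RefSeq promoter sequence of build GRCm38.p6, written 5′ to 3′ on the strand of the gene and limited to bases upstream of the transcript start. Capitals mark the CpGs of the run, those with a level in all 6 libraries on at least 1 strand. The genes were named after their values were seen. The Asz1 stretch runs from 124 to 1 bases before the start, Ctnnd1 from 81 to 4, Dnajc5g from 78 to 22 and Cck from 120 to 2.
Asz1: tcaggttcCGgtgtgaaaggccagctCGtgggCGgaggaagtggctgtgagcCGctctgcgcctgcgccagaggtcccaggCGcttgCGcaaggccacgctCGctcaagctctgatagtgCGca
Ctnnd1: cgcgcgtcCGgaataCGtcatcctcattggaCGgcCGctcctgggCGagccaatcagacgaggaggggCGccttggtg
Dnajc5g: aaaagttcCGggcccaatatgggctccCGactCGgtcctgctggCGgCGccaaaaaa
Cck: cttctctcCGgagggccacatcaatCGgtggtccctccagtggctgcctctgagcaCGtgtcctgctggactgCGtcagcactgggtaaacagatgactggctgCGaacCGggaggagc
The Asz1 stretch carries 8 CpGs of its run, Ctnnd1 6, Dnajc5g 5 and Cck 6. The leftmost capital CpG of each stretch is part of a CCGG, where MspI cuts.

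Among runs with at least 3 cytosines on each strand, the 3 with the lowest Dnmt3a level relative to the reference are shown next, as the strongest examples that the rule selected. Their letters were read from the 5-base context that the files give around each cytosine, on the plus strand of mm9. Capitals mark CpGs with a level in all 6 libraries, and n stands for a base that no context covers. The stretches are chr4:136280781-136280905, chr15:27703719-27703827 and chr8:80653625-80653730.
Chromosome 4 run: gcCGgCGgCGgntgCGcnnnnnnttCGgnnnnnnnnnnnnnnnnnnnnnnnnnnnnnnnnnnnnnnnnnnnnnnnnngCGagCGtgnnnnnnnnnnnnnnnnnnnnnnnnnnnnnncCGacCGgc
Chromosome 15 run: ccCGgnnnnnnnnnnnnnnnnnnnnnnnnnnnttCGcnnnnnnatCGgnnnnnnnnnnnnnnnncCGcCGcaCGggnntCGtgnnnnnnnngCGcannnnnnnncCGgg
Chromosome 8 run: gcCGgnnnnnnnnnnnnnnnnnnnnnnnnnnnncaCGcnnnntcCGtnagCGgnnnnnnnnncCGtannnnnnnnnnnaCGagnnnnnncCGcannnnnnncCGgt
Each of the 3 stretches begins and ends at a CCGG.

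The chromosome 4 run (chr4:136280783-136280903, mm9, 9 cytosines) read 56.9% in control, 19.3% in the Dnmt3a library, 40.2% in the double knockdown, 64.2% in the Dnmt3b library, 64.1% in the Tet1 and Tet2 library and 13.6% in the Dnmt1 library. It lay 111 kb from the start of Ephb2, which encodes a receptor tyrosine kinase for ephrin-B ligands, and within the extent of that gene. Single cytosines ranged from 36.1% to 80% in control and from 4% to 40% in the Dnmt3a library, and 9 of 9 were below control there. In the double knockdown the same cytosines ranged from 31% to 54.2%, again 9 of 9 below control. The Dnmt3a library was thus low along the whole run and the double knockdown lay between it and control. On chromosome 15 (chr15:27703721-27703825, 9 cytosines) the levels were 61.0% in control, 22.1% in the Dnmt3a library, 38.9% in the double knockdown, 60.6% in the Dnmt3b library, 64.6% in the Tet1 and Tet2 library and 15.8% in the Dnmt1 library. The chromosome 8 run (chr8:80653627-80653728, 8 cytosines) read 56.7% in control, 23.7% in the Dnmt3a library, 34.5% in the double knockdown, 64.9% in the Dnmt3b library, 67.5% in the Tet1 and Tet2 library and 6.8% in the Dnmt1 library. At this run 7 of 8 cytosines were below control in each of the Dnmt3a and double knockdown libraries. No matched gene spans either of these runs. As the rule took the lowest ratios, these 3 runs are the far end of the range and not typical of it.

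Over all 809 Dnmt3a-sensitive runs, the control library had a mean level of 67.7% ± 9.17 (SD over runs), against 85.6% ± 7.33 in the other methylated runs. Levels of the sensitive runs in control went from 42.5% to 94.3%, with a median of 67.3%. They were thus partly methylated in control cells, while most other methylated runs were near the top of the scale. Of the runs with a reference between 60% and 70%, 74.9% were sensitive, against 45.8% between 70% and 80%, 8.79% between 80% and 90% and 0.792% at 90% or more. The libraries used by the rule averaged 47.2% (Dnmt3a), 70.5% (Dnmt3b) and 74.6% (Tet1 and Tet2) in the sensitive runs. In the other methylated runs they averaged 77.8%, 85.8% and 87.3%.

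**Figure D1:**
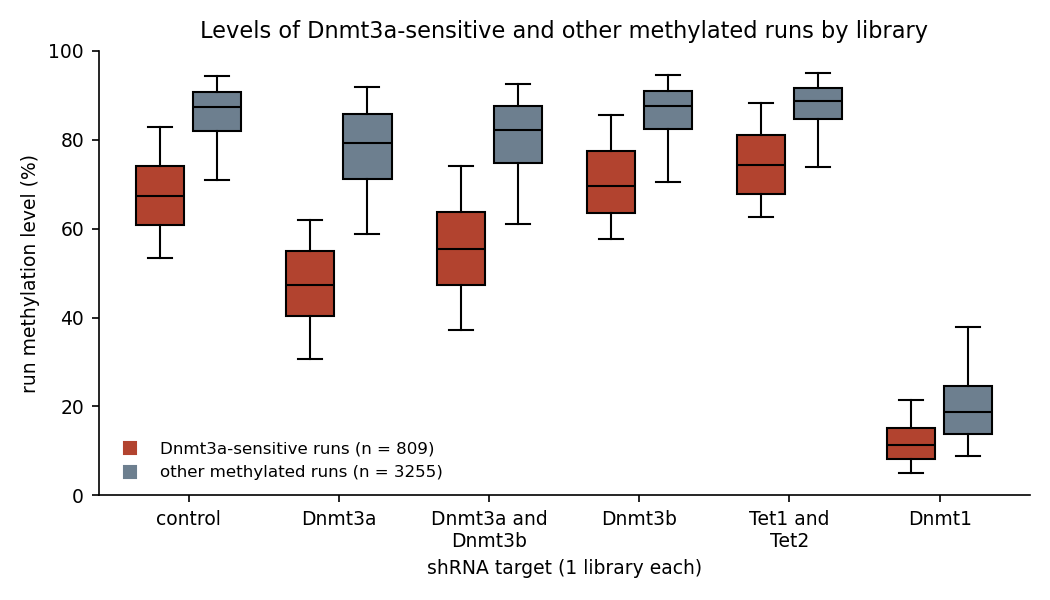
Boxes show the run methylation level (%, vertical axis) in each library, named by its shRNA target, for 809 Dnmt3a-sensitive runs (red) and 3255 other methylated runs (grey); lines in boxes are medians, boxes the quartiles and whiskers the 5th to 95th percentiles over runs. The sensitive runs have a median of 67.3% in control, 47.3% in the Dnmt3a library and 55.4% in the double knockdown, and both classes are lowest in the Dnmt1 library.

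The rule made the fall against the reference, so the same runs were read against control. All 809 were below control in the Dnmt3a library, with a mean difference of -20.5 ± 0.76 percentage points (SD over autosomes). Of the other methylated runs 3090 of 3255 (94.9%) were below control too, with a mean difference of -7.71 ± 0.51 points. The classes thus differed in the size of the difference more than in its direction. The rule itself calls 19.9% of methylated runs. Measured against control, 585 of the 809 stood at 75% or less, where 15.2% of all methylated runs did. That leaves 224 selected runs that did not pass the same limit against control, and 31 runs outside the selection that did. These counts rest on the Dnmt3a library that chose the runs and are a description. The mean share was 64.6% of the reference and 69.4% of control. Part of the fall against the reference therefore lay in the reference being 4.83 points above control in these runs, compared with 0.963 points in the other methylated runs. The Tet1 and Tet2 library was 6.87 points above control in sensitive runs and 1.70 points in the others, and the Dnmt3b library 2.79 and 0.222 points. Both libraries form the reference, and the rule favours runs where they read high. Their excess over control is therefore a description too.

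The double knockdown, which the rule did not use, was also low at these runs. It averaged 55.4% ± 11.5 (SD over runs), a difference from control of -12.3 ± 1.02 points (SD over autosomes), and was below control on 19 of 19 autosomes and in 780 of 809 runs (96.4%). The other methylated runs were likewise below control on 19 of 19 autosomes and in 2907 of 3255 runs (89.3%), so the classes differed in the size of the difference more than in its direction. These others averaged 80.3% in that library, a difference from control of -5.27 points. As a share of control the means were 81.6% in the sensitive runs and 93.7% in the others. Of the 809, 196 (24.2%) stood at 75% of control or less, where 5.61% of all methylated runs did and 0.983% of those outside the selection. The differences of the Dnmt3a and the double knockdown library from control use the same control library, and both libraries came from cells with a Dnmt3a shRNA.

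Targeting Dnmt3b together with Dnmt3a went with a higher level at the sensitive runs than targeting Dnmt3a alone. The double knockdown was 8.26 ± 6.75 points (SD over runs) above the Dnmt3a library and higher in 727 of 809 runs. Among the other methylated runs it was 2.45 ± 4.56 points above, and higher in 2366 of 3255. Since a low Dnmt3a level chose the sensitive runs, this difference is a description. At runs chosen on the plus strand alone, the double knockdown read 55.3% and the Dnmt3a library 46.6% on that strand. On the minus strand, which had not chosen them, they read 55.3% and 48.7%, with the double knockdown higher in 234 of 282 runs. In the other methylated runs it was higher in 625 of 879 on the minus strand, at 77.6% against 74.6%. The sensitive runs were also split into 4 groups by their Dnmt3a share of the reference. In the group with the lowest shares (18.5% to 59.97%, 203 runs) the double knockdown read 75.7% of control, and in the group with the highest (71.5% to 74.96%, 202 runs) it read 85.4%. The runs with the deepest fall in the Dnmt3a library thus had the deepest fall in the double knockdown. The control level also went from 60.5% to 73.0% between these groups.

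Reference level and selection are linked, so the comparison was repeated among runs of like reference. Between 60% and 70% the double knockdown minus control was -13.9 ± 7.33 points (SD over runs) in 353 sensitive runs and -8.31 ± 6.73 points in 118 others. Between 70% and 80% the differences were -11.9 ± 6.30 points in 286 sensitive runs and -8.42 ± 5.73 points in 339 others. From 80% to 90% they were -9.34 ± 6.44 points in 161 sensitive runs and -5.92 ± 4.72 points in 1671 others. The sensitive runs had the larger fall in each of these bands, and in the 9 runs at 90% or more, but by less than 1 SD over runs in the first 3. Control itself lay further below the reference in sensitive runs in each band. Control minus reference was, for example, -4.78 points in sensitive and -0.55 points in other runs between 60% and 70%. The rule favours runs with a high reference, so this gap is a description.

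**Figure D2:**
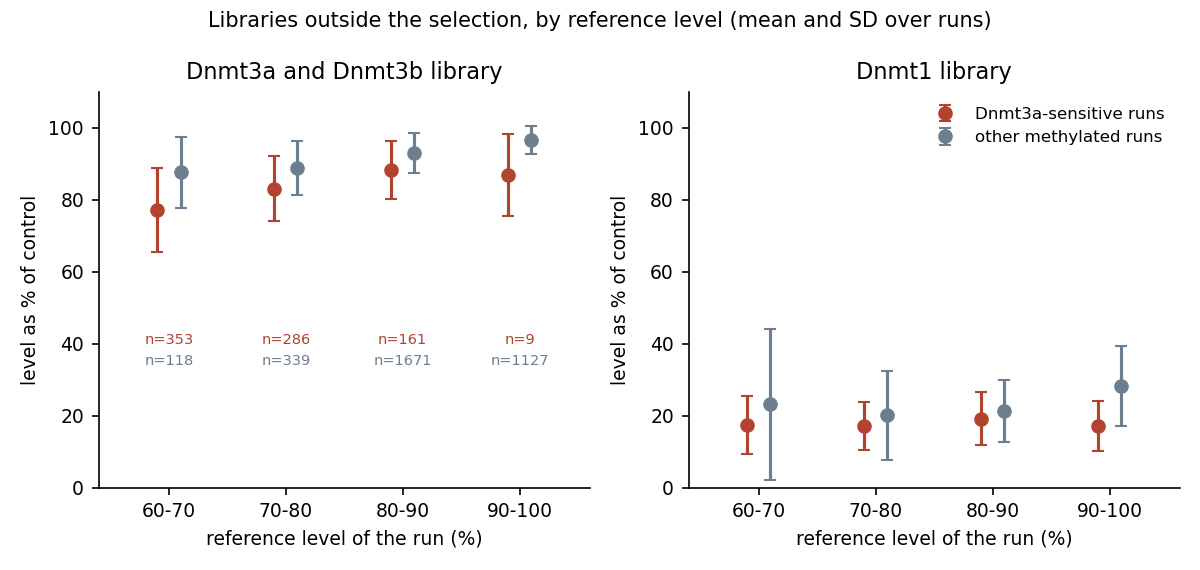
Mean level as a percent of control (vertical axis) in the double knockdown library (left) and the Dnmt1 library (right), by reference level of the run (%, horizontal axis), for Dnmt3a-sensitive (red) and other methylated runs (grey); error bars are the SD over runs and n is the number of runs. Between 60% and 70% the double knockdown is at 77.2% of control in sensitive runs and 87.7% in the others, and the Dnmt1 library at 17.5% and 23.3%.

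The Dnmt1 library, also outside the rule, was far lower than any other at the sensitive runs. Their mean level there was 12.0% ± 0.919 (SD over autosomes), against 20.5% ± 1.52 in the other methylated runs. This was 17.8% of control in the sensitive and 23.7% in the other runs. Of the sensitive runs, 707 of 809 (87.4%) kept at most 25% of their control level, where 68.7% of all methylated runs did. The share was 64.1% for those outside the selection. Within reference bands the gap varied: 17.5% of control in sensitive against 23.3% in other runs between 60% and 70%, 17.3% against 20.2% between 70% and 80%, and 19.2% against 21.3% between 80% and 90%. At 90% or more it was widest, 17.1% ± 6.93 (SD over runs) in 9 sensitive runs against 28.3% ± 11.1 in 1127 others.

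A few sensitive runs kept much of their methylation in the Dnmt1 library. The highest level was 44.1%, at chr3:159109162-159109297 (7 cytosines), where control read 63.0%, the Dnmt3a library 46.5%, the double knockdown 49.1%, the Dnmt3b library 62.6% and the Tet1 and Tet2 library 63.1%. A run at chr17:3044121-3044169 (6 cytosines, all on the minus strand) followed with 43.3% in the Dnmt1 library, 70.6% in control, 44.8% in the Dnmt3a library and 60.8% in the double knockdown. A run at chr5:140200711-140200847 (5 cytosines) read 39.3% in the Dnmt1 library, 79.8% in control, 63.7% in the Dnmt3a library and 74.2% in the double knockdown. At the chromosome 3 and 17 runs the Dnmt1 and Dnmt3a libraries were nearly equal, unlike at the sensitive runs as a whole.

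Of the libraries outside the rule, the double knockdown varied most between sensitive runs, with an SD of 11.5 points against 9.17 in control. Its share of the reference was lowest at chr11:69235215-69235262 (5 plus-strand cytosines), where control read 54.2%, the Dnmt3a library 13.3%, the double knockdown 20%, the Dnmt3b library 58.8%, the Tet1 and Tet2 library 62.5% and the Dnmt1 library 5.94%. At chr11:62701127-62701257 (7 cytosines) the double knockdown read 21.3%, below the Dnmt3a library at 26.6%, with control at 55.1%. At chr19:41812995-41813044 (5 cytosines) it read 29.3% and the Dnmt3a library 34.8%, with control at 59.3%. These last runs are among the 81 sensitive runs in which the double knockdown was the lower of the pair. At the other end, the double knockdown was above the reference at chr3:143715836-143715949 (7 cytosines), where it read 82.5% against 84.9% in control and 60.4% in the Dnmt3a library. At chr9:22520168-22520207 (5 minus-strand cytosines) it read 78.5%, while control stood at 94.3% and the Dnmt3a library at 53.8%. The highest share of all was at the Smarca5 promoter, described with the promoters.

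The limits of the rule cut through a continuous range. Just inside the 75% limit lay chr2:31924923-31924982, chr9:59810626-59810783 and chr1:183470052-183470180, with Dnmt3a levels of 50.8%, 61.9% and 59.3% and control levels of 58.8%, 74.7% and 80.7%. Just outside lay chr16:35857202-35857250, chr17:45816443-45816561 and chr8:122921449-122921685, with Dnmt3a levels of 55.5%, 61.3% and 56.6% and control levels of 62.9%, 79.0% and 70.7%. The inner 3 and the outer 3 do not separate in either library. The run on chromosome 2 lies 14.3 kb into Fam78a, and the outer one on chromosome 17 lies 6.67 kb into Tmem63b, which encodes a membrane protein of an ion channel family. At the 60% limit of the reference, chr1:134228150-134228367, chr4:97577624-97577737 and chr7:52899539-52899648 were just inside, with control levels of 44.3%, 56.9% and 54.4% and Dnmt3a levels of 31.7%, 24.5% and 21.9%. Just outside were chr5:129774496-129774615, chr2:169919919-169920045 and chr2:73973867-73973991, with control levels of 46.0%, 52.7% and 61.1% and Dnmt3a levels of 28.7%, 35.6% and 38.7%. Sensitive runs with the highest reference (91.5%, 91.4% and 91.4%) all lay on chromosome 11. They include chr11:75259470-75259584, 8.69 kb into Wdr81, and chr11:107874326-107874368 inside Prkca, the gene of protein kinase C alpha. Control read 84.8% and 87.2% at these, the Dnmt3a library 58.8% and 64.2%, and the double knockdown 73.5% and 86%. The third, at chr11:61299648-61299693, read 87.2% in control, 63.1% in the Dnmt3a library and 76.2% in the double knockdown.

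Inside the sensitive runs the low Dnmt3a level was shared by nearly all cytosines. Of their 5329 cytosines 97.0% were below control in the Dnmt3a library and 88.3% in the double knockdown, against 84.0% and 76.2% in the other methylated runs. Every cytosine was below control in 684 of 809 sensitive runs (84.5%) in the Dnmt3a library and in 453 (56.0%) in the double knockdown. Among the 3255 other methylated runs this held in 1492 (45.8%) and 969 (29.8%). Levels within a run also varied more: the median SD within a run was 10.8 points in control, compared with 5.84 points in the other methylated runs. Mean control levels differed as well, at 67.7% and 85.6%, and the SD was not compared among runs of like reference. The outermost cytosines of a sensitive run read 71.1% of control in the Dnmt3a library and the inner ones 69.3%. These levels took part in the choice of the runs, and a mean over runs does not show whether a single run holds an edge.

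The 2 strands of a run are read separately and mostly at different CpGs, which allows the same library to be read again. Whether reads of the 2 strands came from the same DNA fragments cannot be told from the levels. The rule was applied to plus-strand cytosines alone, at runs with at least 3 cytosines on each strand, and the level was then read on the minus strand. It selected 282 runs. Their Dnmt3a level was 63.8% of the reference on the plus strand that chose them and 69.3% on the minus strand, where the 879 other methylated runs stood at 87.9%. The reference itself on the minus strand was 70.3% in the selected and 84.8% in the other runs. The strands were not compared among runs of like reference. On the minus strand 277 of 282 runs were below control in the Dnmt3a library, with a mean difference of -17.3 ± 8.79 points (SD over runs). Of the other methylated runs 826 of 879 were below control, with a mean difference of -9.11 ± 6.68 points. The selected runs thus kept most of their low level on the strand that had not chosen them, although only 133 of the 282 met the rule there, as did 83 of the 879 others. The double knockdown read 83.8% of control on the minus strand of these runs and 92.8% in the others. Selection on the minus strand with reading on the plus strand gave 68.8% of the reference in 275 runs. Both strands belong to 1 library, so this repeats the measurement and not the culture.

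**Figure D3:**
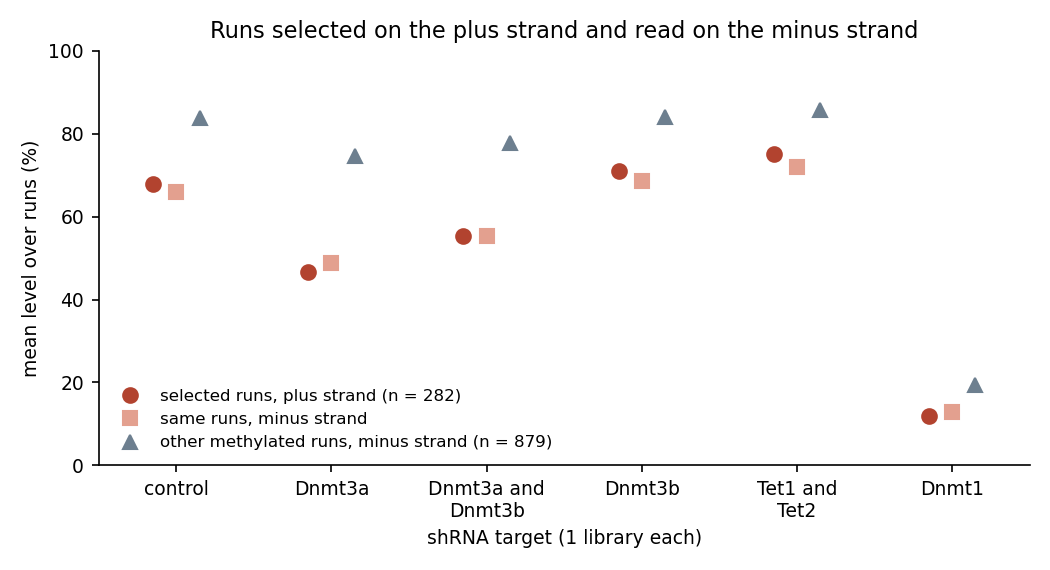
Mean level over runs (%, vertical axis) in each library, named by its shRNA target, for 282 runs selected on the plus strand (circles), the same runs on the minus strand (squares) and 879 other methylated runs on the minus strand (triangles). On the minus strand the selected runs read 48.7% in the Dnmt3a library and 66.0% in control, the other runs 74.6% and 83.7%.

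The surroundings of the runs were examined at cytosines that belong to no methylated run and were at 60% or more in control. At 100 to 500 bp from a sensitive run, 255 such cytosines averaged 77.6% in control and 61.6% in the Dnmt3a library. That is 79.3% of control, ± 8.60 (SD over autosomes). At the same distance from other methylated runs, 1137 cytosines averaged 85.2% in control and 76.6% in the Dnmt3a library, or 89.9% ± 2.59 of control. The value near sensitive runs was the lower one on 18 of 19 autosomes. From 500 to 2000 bp the shares were 85.7% near sensitive and 88.9% near other runs, with the sensitive side lower on 15 of 18 autosomes. From 2000 to 5000 bp they were 84.4% and 87.8%, lower on 16 of 19. From 5000 to 10000 bp they were 86.9% and 87.8%, lower on 8 of 18, and from 10000 to 50000 bp 87.1% and 88.4%, lower on 14 of 19. Beyond 500 bp the differences were within the SD over autosomes near sensitive runs, although most autosomes still had the lower value there in all but 1 of these distances. The double knockdown had 84.3% ± 6.65 of control at 100 to 500 bp from sensitive runs and 92.7% ± 2.07 near the others. Control levels also differed at that distance. Among flanking cytosines at 80% or more in control, a limit added after seeing the data, the Dnmt3a shares were 82.2% and 91.2%, lower near sensitive runs on 19 of 19 autosomes. Without any minimum in control, also added then, the shares were 74.7% and 88.0% at 100 to 500 bp and 74.4% and 81.8% at 2000 to 5000 bp, so the nearest cytosines were then not the lowest, and the sensitive side was lower on 17 of 19 autosomes from 5000 to 10000 bp. That set includes unmethylated cytosines, and control averaged 57.01% near sensitive and 74.97% near other runs in its nearest bin. Cytosines within 500 bp can lie on the same DNA fragment as the run.

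**Figure D4:**
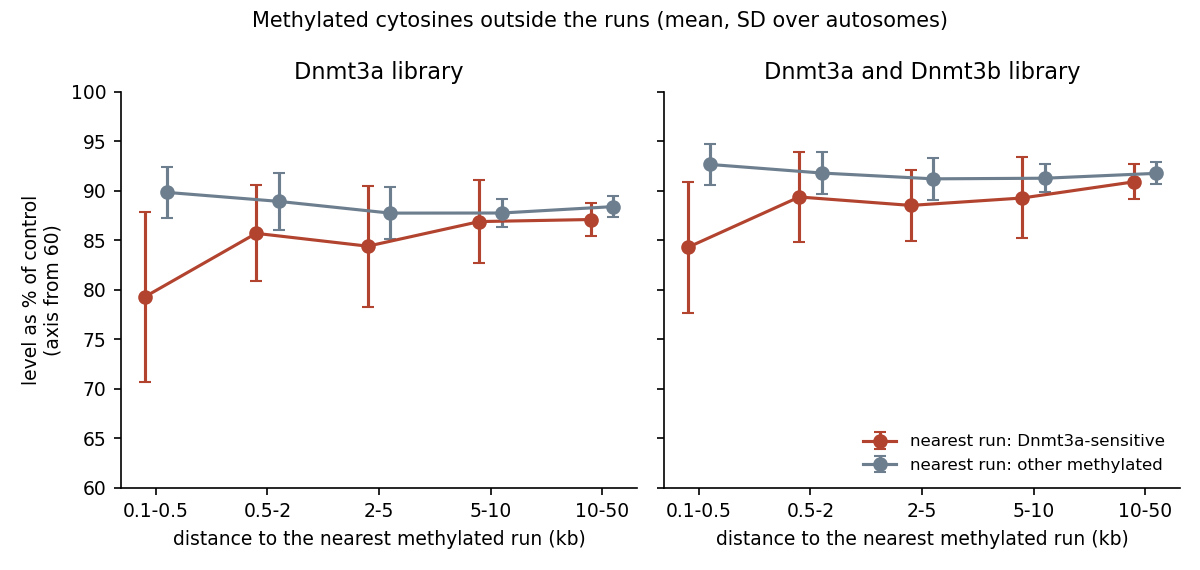
Level as a percent of control (vertical axis, starting at 60) of methylated cytosines outside the runs in the Dnmt3a (left) and double knockdown (right) library, by distance to the nearest methylated run (kb), for cytosines nearest a Dnmt3a-sensitive (red) or other methylated run (grey); points are means, bars the SD over autosomes. In the nearest bin the Dnmt3a library is at 79.3% near sensitive runs and 89.9% near the others, and the lines come closer at larger distances.

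The base after the CpG went with the size of the fall. DNMT3A is known for a preference for CpGs followed by certain bases, so cytosines outside MspI sites were split by that base. Whether such a preference underlies the values below was not tested. In sensitive runs CGT cytosines read 42.0% in the Dnmt3a library and 65.3% in control, a share of 64.3% ± 3.37 (SD over autosomes). CGC cytosines read 51.0% and 71.3%, a share of 71.5% ± 2.04. CGA and CGG lay between, at 68.7% and 70.2%, and MspI sites at 71.7%. The share for CGT was below that for CGC on 18 of 19 autosomes. A low Dnmt3a level chose these runs, so their Dnmt3a shares are a description. In the other methylated runs CGT was again below CGC, at 88.6% and 91.9%, on 19 of 19 autosomes. The gap was smaller in points there, and so was the fall at every base. CGG and CGA changed places there, at 90.7% and 90.8%. In the double knockdown CGT stood at 79.9% and CGC at 84.5% of control in sensitive runs, on 18 of 19 autosomes. CGT cytosines also started from the lower control level of the pair. In the Dnmt1 library CGT was below CGC too, at 17.4% and 19.5% of control in sensitive runs and 23.0% and 27.0% in the others. That order was thus not particular to the libraries with a Dnmt3a shRNA. CGG was lowest in the Dnmt1 library, at 16.0% in sensitive and 22.3% in other runs. The makeup of the runs hardly differed: 37.7% of cytosines in sensitive runs and 35.7% in the others had a C or T after the CpG, and 31.4% and 32.0% were at MspI sites.

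Sensitive runs were like the other methylated runs in size and density. Both had a median of 6 cytosines. The median length was 121 bp for sensitive and 123 bp for other runs, and the median density 4.96 and 4.88 listed cytosines per 100 bp. They differed more in position. The median distance to the nearest unmethylated run, one at 20% or less in control, was 27.3 kb for sensitive runs and 47.8 kb for the others. Within 2 kb of such a run lay 38 sensitive runs (4.70%) and 61 others (1.87%). Of all methylated runs within 2 kb of an unmethylated one, 38.4% were sensitive, falling over 28.9%, 22.0% and 16.4% to 10.1% beyond 200 kb. The reference level rose over the same steps from 77.5% to 85.9%. Among runs of like reference the median distances were 23.3 kb for sensitive and 30.8 kb for other runs between 60% and 70%, 28.9 kb and 28.6 kb between 70% and 80%, 38.9 kb and 40.9 kb between 80% and 90%, and 39.0 kb and 70.8 kb at 90% or more, the last with 9 sensitive runs. The gap in distance was thus small in the middle bands and wider in the lowest and highest. Within 2 kb lay 5.38% of sensitive and 5.08% of other runs between 60% and 70%, and 5.24% and 4.13% between 70% and 80%. The shares were 2.48% and 2.03% between 80% and 90%, and 0% and 0.621% at 90% or more. The excess within 2 kb was thus much smaller among runs of like reference. Sensitive runs were found on all 19 autosomes, with shares of the methylated runs from 12.4% on chromosome 18 to 24.1% on chromosome 2 (SD 3.40). A methylated run that followed a sensitive one was itself sensitive in 10 of 43 cases at 0.1 to 2 kb (23.3%), 16 of 52 at 2 to 10 kb (30.8%), 57 of 229 at 10 to 100 kb (24.9%) and 20.9% of 483 cases beyond that. After another methylated run the shares were 16.4%, 15.9%, 21.2% and 18.9%, and 19.9% of all methylated runs were sensitive. The share of sensitive runs fell with the reference level, and neighbours were not compared among runs of like reference.

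To place runs at genes, the 5-base contexts of their cytosines and the spacing between them were matched to RefSeq promoter windows of GRCm38.p6, which reach from 250 bases before to 50 after a transcript start. Chromosome 18 was not analysed here for promoters. A match of at least 5 cytosines was found for 14 of 794 sensitive runs (1.76%) and 19 of 3149 other methylated runs (0.603%). Between reference levels of 60% and 70% the order was the opposite, 5 of 348 (1.44%) and 3 of 116 (2.59%). Between 70% and 80% the counts were 6 of 282 (2.13%) and 3 of 330 (0.909%). Between 80% and 90% they were 3 of 155 (1.94%) and 11 of 1622 (0.678%), and at 90% or more 0 of 9 and 2 of 1081 (0.185%). The 14 runs match 16 genes, 12 protein-coding and 4 of long noncoding RNA, because a pair of runs lies between genes that start in opposite directions. Promoter runs that are methylated and sensitive were thus few, and the matched genes are described 1 by 1. Their control levels ranged from 53.7% to 78.4% and their Dnmt3a levels from 31.7% to 56.98%. All 14 were lower in the Dnmt3a library than in control. There 11 stood at 75% of control or less, where 72.3% of all sensitive and 15.2% of all methylated runs did. A low Dnmt3a level chose these runs, so their order against that library is a description. In the double knockdown 12 were below control and 14 of 14 stood above the Dnmt3a library. At 75% of control or less in the double knockdown was 1, where 24.2% of all sensitive and 5.61% of all methylated runs were. Of the 19 other methylated promoter runs, 17 were below control in each of these libraries and 14 had the double knockdown above the Dnmt3a library, and 89.9% of all sensitive runs did.

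The sensitive run with the most cytosines lay at Dazl, which encodes an RNA-binding protein of germ cells. It had 22 cytosines at chr17:50432711-50432946 (mm9), from 1 base before to 234 bases after the transcript start. Its level was 70.9% in control, 53.9% in the Dnmt3a library, 65.1% in the double knockdown, 76.7% in the Dnmt3b library, 71.9% in the Tet1 and Tet2 library and 13.1% in the Dnmt1 library. The 3 libraries without a Dnmt3a or Dnmt1 shRNA read close together there, and the double knockdown was nearer to control than to the Dnmt3a library. No sequence is shown, because the run lies after the start. Next in number of cytosines were chr7:29997651-29997939 (16 cytosines), with 67.8% in control, 52.6% in the Dnmt3a library and 58.9% in the double knockdown, and chr4:44405901-44406075 (15 cytosines), with 63.1%, 37.8% and 44.4% in these libraries.

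The run whose sequence is shown for Asz1, the gene of an ankyrin-repeat protein of germ cells that acts with piRNAs, had 11 cytosines at chr6:18059029-18059177. It read 68.3% in control, 50.3% in the Dnmt3a library, 64.0% in the double knockdown, 77.5% in the Dnmt3b library, 73.9% in the Tet1 and Tet2 library and 12.3% in the Dnmt1 library. As at Dazl, the double knockdown was much closer to control (93.7% of it) than the Dnmt3a library was (73.6%). The shown Ctnnd1 stretch is also the upstream sequence of Btbd18 on the other strand. Ctnnd1 encodes p120 catenin of cadherin junctions, and Btbd18 a nuclear protein needed for piRNA precursor transcription in the testis. Their shared run (chr2:84499098-84499207, 10 cytosines) read 56.6% in control, 39.1% in the Dnmt3a library, 45.8% in the double knockdown, 65.1% in the Dnmt3b library, 65.7% in the Tet1 and Tet2 library and 12.0% in the Dnmt1 library. Here the double knockdown lay closer to the Dnmt3a library than to control.

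The Dnajc5g stretch likewise lies upstream of Slc30a3, the gene of a zinc transporter of synaptic vesicles. Dnajc5g encodes a member of the DnaJ chaperone family. Their run (chr5:31410622-31410742, 8 cytosines) read 71.8% in control, 52.9% in the Dnmt3a library, 60.6% in the double knockdown, 78.8% in the Dnmt3b library, 82.1% in the Tet1 and Tet2 library and 13.8% in the Dnmt1 library. At Cck, the gene of the peptide hormone cholecystokinin, the run (chr9:121404822-121404924, 6 cytosines) read 66.0% in control, 49.8% in the Dnmt3a library, 63.5% in the double knockdown, 82.2% in the Dnmt3b library, 78.5% in the Tet1 and Tet2 library and 13.3% in the Dnmt1 library. The reference at Cck was well above control, so the run passes the rule while its Dnmt3a level was 75.4% of control, just above the same limit.

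The lowest Dnmt3a level among promoter runs was at Plut, a long noncoding RNA gene next to Pdx1. That run (chr5:148083045-148083278, 8 cytosines) read 56.1% in control, 31.7% in the Dnmt3a library and 41.6% in the double knockdown. At Arhgef10l the run (chr4:140221866-140221919, 6 cytosines) read 68.9% in control, 42.9% in the Dnmt3a library and 55.9% in the double knockdown. Ldhd, which encodes the mitochondrial D-lactate dehydrogenase, held a run (chr8:114154320-114154452, 5 cytosines) at 65.1%, 51.1% and 60.2% in these libraries. The double knockdown lay between the Dnmt3a library and control in these 3 runs.

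In 2 promoter runs the double knockdown was above control. At Smarca5, the gene of the ATPase of ISWI chromatin remodellers, the run (chr8:83263425-83263455, 5 minus-strand cytosines) read 61.4% in control, 42.6% in the Dnmt3a library, 82.3% in the double knockdown, 79.3% in the Dnmt3b library, 74.2% in the Tet1 and Tet2 library and 22.6% in the Dnmt1 library. At P2rx1, the gene of an ATP-gated cation channel, the run (chr11:72812463-72812581, 5 cytosines) read 53.7% in control, 33.7% in the Dnmt3a library, 58.2% in the double knockdown and 4.08% in the Dnmt1 library. Both hold the minimum of 5 cytosines. The remaining sensitive promoter runs, at Gm2511, 3930402G23Rik, Gm52066 and Gm46646, were at 48.7% to 65.9% in the double knockdown and 41.4% to 56.98% in the Dnmt3a library.

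**Figure D5:**
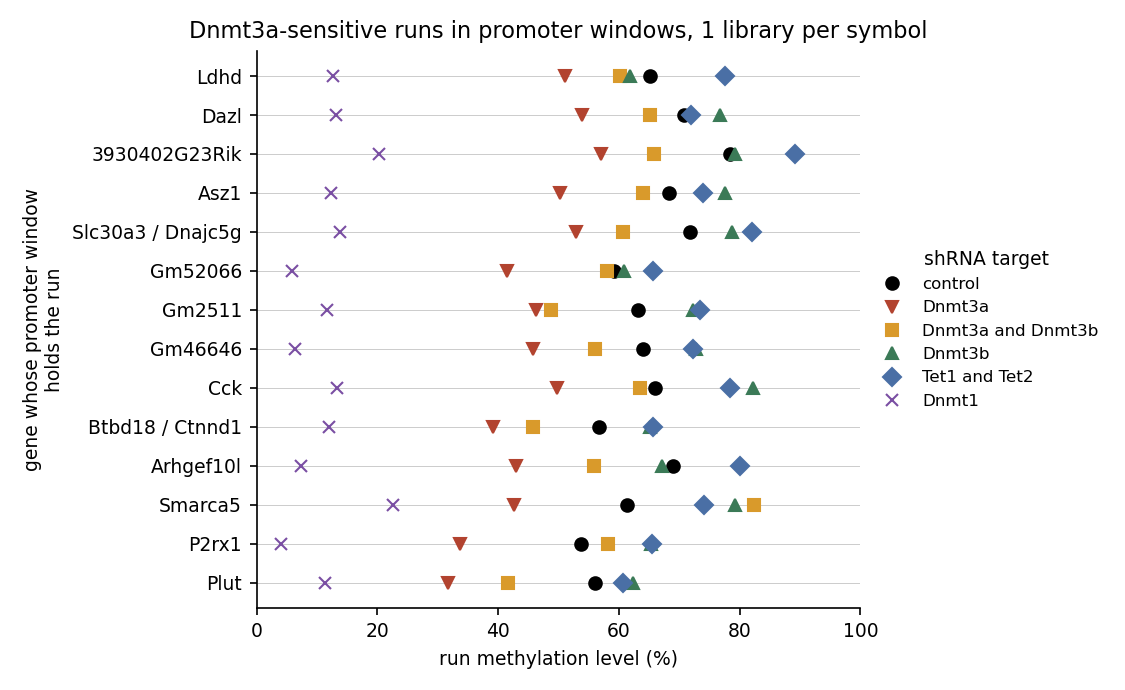
Run methylation level (%, horizontal axis) of the 14 Dnmt3a-sensitive runs in promoter windows, 1 row per run named by its gene or genes and 1 symbol per library, named by its shRNA target. The Dnmt3a level (red triangles) is left of control (black circles) in each row, and the double knockdown (squares) is right of control at Smarca5 and P2rx1.

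Other methylated promoters were not sensitive by the rule. Tex101, which encodes a surface protein of germ cells, read 85.8% in control, 79.5% in the Dnmt3a library and 87.8% in the double knockdown. Fkbp6, which encodes an immunophilin needed in meiosis, read 80.9%, 75.7% and 77.3% in these libraries. The nearest to the limit was Vwa7, with 73.4% in control, 57.3% in the Dnmt3a library and 61.5% in the double knockdown. The 19 promoter runs outside the selection had a median of 85.1% in control and 79% in the Dnmt3a library, so they started higher than the 14 sensitive ones, whose medians were 64.6% and 46.1%. Further from promoters, 156 of 794 sensitive runs (19.6%) and 517 of 3149 others (16.4%) lay within the extent of a gene whose start was matched. Among runs of like reference the order was not constant, with 19.3% of sensitive and 19.8% of other runs between 60% and 70%, 22.0% and 17.6% between 70% and 80%, and 15.5% and 17.8% between 80% and 90%.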

How the data were processed

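RRBS was applied to genomic DNA of E14 embryonic stem cells, 1 library per shRNA group. Bismark 0.10.1, CASAVA 1.8 and build mm9 are listed, without their roles, in the submitters' processing notes. The deposited files give a methylation fraction with 3 decimals per CpG cytosine and strand, without coverage, so no count test was possible and the Fisher test is not used. Fractions were multiplied into percent, and the level of a run is the mean over its cytosines. The Dnmt1 library is titled Dnmt1a and its treatment label, Dnmt1, was followed. The number of per-sample columns left unused was 0. Python 3.11.15, pandas 2.3.3, NumPy 2.4.6 and matplotlib 3.10.9 were used, and the rule and the promoter match were tested on simulated data.

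The runs, limits and comparisons were chosen with earlier results of these data known. Regions named in the text were, among sensitive runs, the 3 with the lowest Dnmt3a share of the reference and at least 3 cytosines on each strand, the 3 with the most cytosines, the 3 with the highest and the 3 with the lowest double knockdown share, the 3 with the highest Dnmt1 level, the 3 just inside and outside each limit and the 3 with the highest reference. Promoter genes were added after the values were seen. Positions are mm9. Promoter windows are GRCm38.p6 and were joined by sequence, never by position. In the search, 4097 of 21885 runs matched a window, and 5 matched on another chromosome. A gene was said to hold a run when the run's mm9 distance from the matched start was within the gene's GRCm38.p6 extent, which does not tell exon from intron. Alternatives covered the gap, run length, limits, reference, level, cytosine set, sex chromosomes and merged strands.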

Additional observations from a re-analysis of the deposited data

How the results depend on the processing

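The count of sensitive runs, their mean levels and differences, density, distance, share before a pyrimidine, strand repeat, promoter share and nearest flank were recomputed under other settings, while values by reference band, by base, by neighbour and at single runs were not. The double knockdown was lower relative to control in sensitive than in other methylated runs under 14 of 14 settings of the rule, with differences of -6.31 to -14.7 percentage points. In 103 of 134 recomputed values the change was under 1 SD over autosomes, under 1.5 times for counts, or inside a binomial interval for the promoter share. Only the Dnmt3a and double knockdown differences from control had a direction that could turn, and 0 did. For the Dnmt3a difference the rule itself largely sets the direction. The number of sensitive runs was 509 with gaps of 50 bp, 2333 with at least 3 cytosines, 65 with at least 10, 529 with a limit of 70% and 170 with a reference of at least 80%. Density was 8.93 per 100 bp with gaps of 50 bp, 4.39 with 300 bp, 6.82 with at least 3 cytosines and 5.54 with at least 10. With at least 10 cytosines the control level was 65.9%, the Dnmt3a difference -19.0 points and the share of CpGs before a pyrimidine 41.0%. At a limit of 70% control was 65.0%, the Dnmt3a difference -22.2 points, the double knockdown 73.1% of the reference and Dnmt1 11.1%. At 80% the first 3 were 70.5%, -18.7 points and 78.8%. With a reference of at least 50% control was 62.6%, the double knockdown 72.9% of the reference and Dnmt1 11.1%. With at least 80% these were 78.8%, 82.3% and 15.0%, and the double knockdown difference was -9.46 points. With Tet1 and Tet2 alone as reference the Dnmt3a difference was -19.7 points and the double knockdown 73.1% of the reference. With medians over cytosines the Dnmt3a difference was -21.7 points. Within 5 kb of an unmethylated run lay 13.6% of sensitive runs. With at least 6 matched cytosines, an alternative added after the data were seen, 1.01% of sensitive runs lay in a promoter window. No paired analysis was possible because each group has 1 library, and for the same reason none could be left out. Depth is unknown, and runs of 5 cytosines can rest on few DNA fragments.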
